A study of Rattus norvegicus with 6 samples.

Results

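S100 proteins are small proteins, most of them calcium-binding, and 8 of their genes were followed here through an injured spinal cord: S100a4, S100a6, S100a8, S100a9, S100a10, S100a11, S100a13 and S100b. They were taken by symbol from deposited tables of single-cell counts, where they were 8 of 28615 genes shared by the 4 time-course libraries and 8 of 25054 genes in the 2 libraries of an injection experiment. All animals were rats (Rattus norvegicus, genotype label SD) of 6 to 8 weeks, with 5 animals per condition. Whether the 5 were pooled into the one library of a condition is not given in the sources used here. In the time course, a 5 mm piece of cord around vertebrae T10 to T11 was taken from intact rats and at day 1, day 3 and day 7 after a crush made with iridectomy scissors. In the injection experiment, every rat was crushed, received an injection into the cord at day 3, and gave its tissue 2 weeks after injury. One library came from rats given MPSS at 10 mg/ml in phosphate-buffered saline (PBS), and the control library from rats given PBS, each at 5 sites with 1 µL per site at depths of 0.6 and 1.2 mm. The intact library carries a treatment label of crush injury although its title says intact, and the title was followed. Gene names in the time-course tables include 7654 of a form used in mouse annotations, although the labels give rat.

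Each S100 protein holds a pair of EF-hand loops, which bind calcium in most of them but not all. Most work as dimers, and many of these bind target proteins when calcium rises. S100a8 and S100a9 pair as calprotectin, a main cytosolic protein of neutrophils that acts outside the cell through Tlr4 and Ager. S100a10 binds annexin A2 at membranes, S100a4, S100a6 and S100a11 are linked to the cytoskeleton and cell movement, S100a13 takes part in the release of Fgf1 and Il1a, and S100b is a classic marker of astroglia and Schwann cells in nerve tissue.

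The values are counts of unique molecular identifiers (UMIs), which count RNA molecules at the 3′ end of transcripts and need no scaling by gene length. Cells were named by marker genes that did not include any of the 8 genes, and the UMIs of a class were summed within a library and given as counts per 1000000 UMIs (CPM). Every group held 1 library, so no difference has a replicate check and no p-value is given. Brackets hold exact 95% intervals, which cover counting error only. A member counted as higher or lower when it differed at least 2-fold with at least 10 UMIs over both libraries. The share of all measured genes that did so is given beside each count of the main setting. Under other scalings, gates and filters that share was not counted. The filters kept 2757 intact cells, 7360 at day 1, 9263 at day 3 and 7467 at day 7, with 9661552 to 72515788 UMIs per library, 1377 of 1513 PBS cells and 2091 of 2339 MPSS cells. Pairs of libraries shared 5 to 91 cell barcodes, at most 1.67% of the smaller one. The gate named 98.8% of intact cells, 72.9% at day 1, 91.7% at day 3, 96.8% at day 7, 87.9% of PBS cells and 89.8% of MPSS cells. Defining markers of each class compared below were present, and phagocytes carried 16482 to 34059 CPM of their own list. Most unnamed day 1 cells had monocyte and macrophage markers, and a group called monocyte-marked cells was added after the data were seen. It held 20 intact cells, 1623 at day 1, 566 at day 3 and 135 at day 7.

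In the rat assembly GRCr8, 7 of the 8 genes lie on chromosome 2 and S100b on chromosome 20. S100a8 and S100a9 are next to each other, S100a4 sits between S100a3 and S100a5, S100a6 between S100a5 and S100a7a, and S100a10 next to S100a11. RefSeq promoter sequences were held for 6 of the 8 genes, and none for S100a8 and S100a10. The 250 bases before the start are printed for S100a9, which in the time course was highest in neutrophils. They are also printed for S100a4 and S100a11, which were both higher in phagocytes after injury. Capitals mark a TATAAA box. The S100a9 window is chr2:178490623-178490872 on the minus strand, the S100a4 window chr2:178388279-178388528 on the plus strand, and the S100a11 window chr2:181874882-181875131 on the plus strand (all GRCr8).
S100a9: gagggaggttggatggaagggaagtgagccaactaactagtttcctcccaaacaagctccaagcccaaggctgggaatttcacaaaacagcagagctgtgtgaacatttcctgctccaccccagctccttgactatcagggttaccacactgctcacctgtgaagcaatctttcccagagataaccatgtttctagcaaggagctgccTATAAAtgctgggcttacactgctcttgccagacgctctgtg
S100a4: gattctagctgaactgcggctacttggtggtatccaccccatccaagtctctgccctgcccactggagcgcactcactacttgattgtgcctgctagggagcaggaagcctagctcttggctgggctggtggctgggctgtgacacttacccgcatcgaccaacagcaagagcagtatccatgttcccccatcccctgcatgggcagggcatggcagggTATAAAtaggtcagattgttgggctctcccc
S100a11: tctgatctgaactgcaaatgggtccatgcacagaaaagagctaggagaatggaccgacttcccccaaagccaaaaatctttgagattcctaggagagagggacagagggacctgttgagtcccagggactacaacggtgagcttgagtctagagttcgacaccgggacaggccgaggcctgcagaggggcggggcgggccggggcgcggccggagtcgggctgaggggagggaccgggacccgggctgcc
The TATAAA box began 42 bases before the start of S100a9 and 31 bases before that of S100a4, on the strand of the gene. It was searched on both strands and stood in 12.9% of 33469 promoter windows of the same length. TGANTCA, a form of the AP-1 motif, stood in 6.34% of the windows and TTGCNNAA, a form of the C/EBP motif, in 9.22%, and neither was in the windows of the 6 genes. No box or motif of these 3 was in the S100a11 window. A match is a match of letters only.

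In the time course the 8 genes divided by cell class. S100a8 and S100a9 were highest in neutrophils. Among classes with at least 50 cells after injury, S100a4 was highest in monocyte-marked cells and S100a6 in fibroblasts at each of the 3 days. S100a11 was high in neutrophils, monocyte-marked cells and fibroblasts. S100a10 was highest in astrocytes at day 1, with monocyte-marked and ependymal cells close behind, and in fibroblasts at days 3 and 7. S100a13 was spread over endothelial cells and oligodendrocyte precursor cells (OPC), and S100b over ependymal cells and OPC. In the injected rats S100b was highest in oligodendrocytes among classes with at least 50 cells, and S100a4 was high in Schwann cells and T or NK cells.

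**Figure D1:**
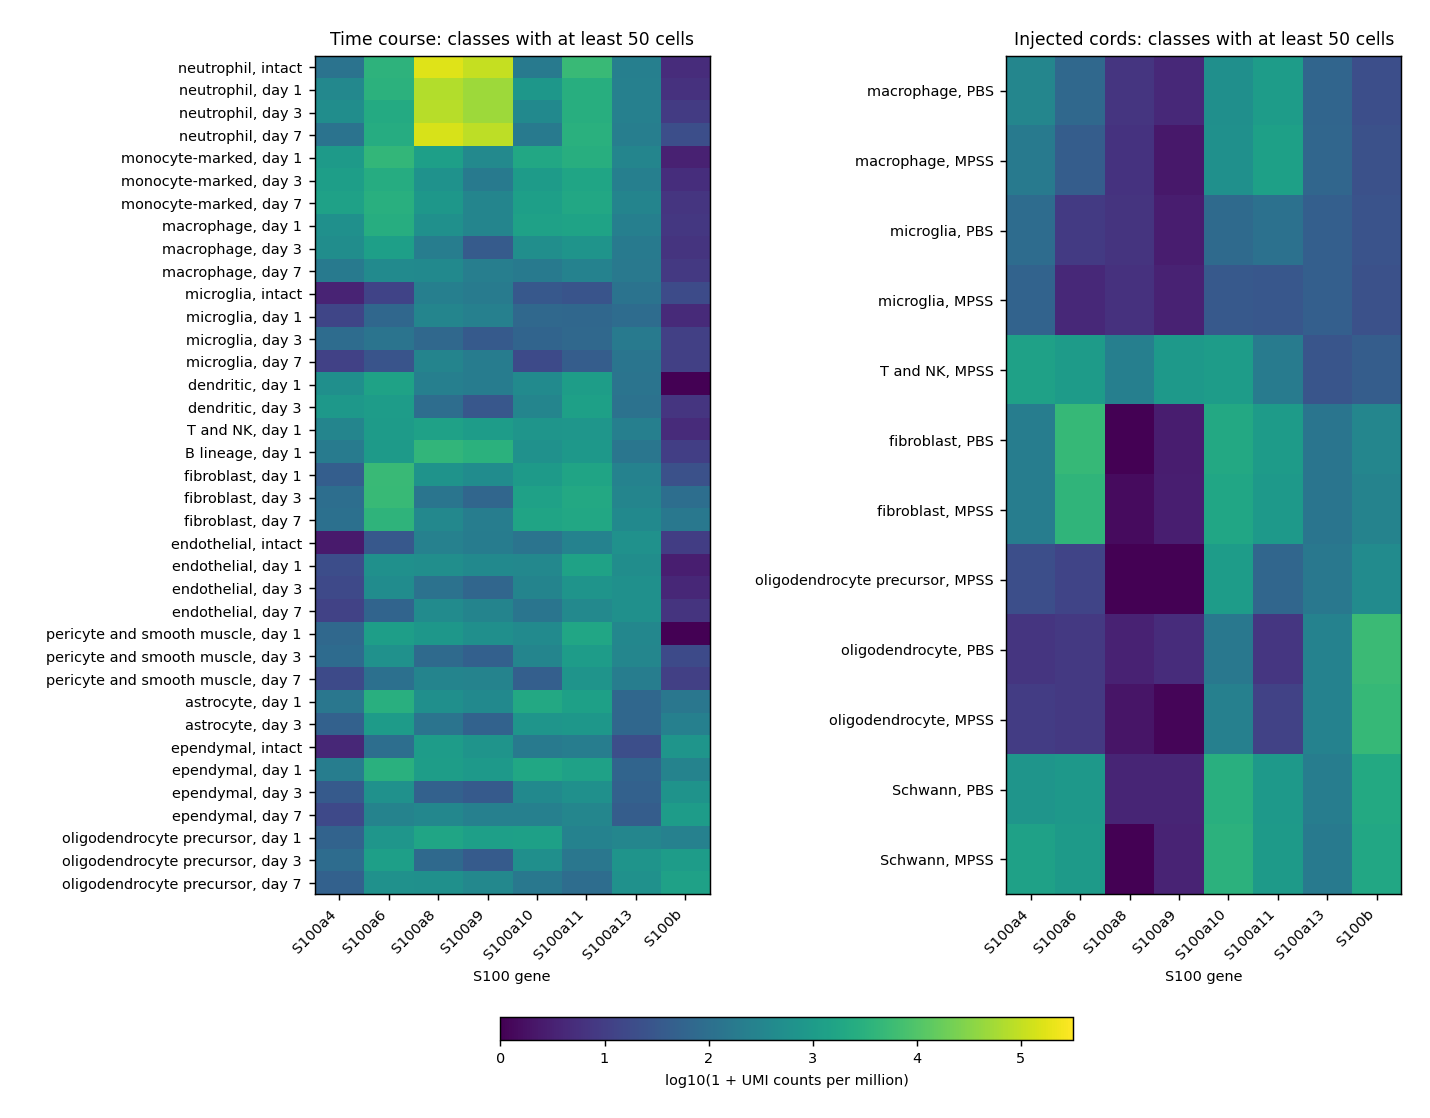
Level of each of the 8 genes (columns) in every cell class with at least 50 cells (rows). The 4 time-course libraries and the PBS and MPSS libraries are shown. Colour is log10(1 + CPM). Brighter colour is a higher level. S100a8 and S100a9 are brightest in neutrophils and S100b in ependymal cells, OPC, oligodendrocytes and Schwann cells.

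S100a8 and S100a9, the subunits of calprotectin, were the most abundant of the 8 genes. S100a8 stood at 171369 CPM in intact neutrophils [169736 to 173014], 72352 at day 1 [72066 to 72639], 81784 at day 3 [80985 to 82590] and 149583 at day 7 [148872 to 150297]. S100a9 stood at 104962, 49244, 48834 and 88436 CPM in the same order. Both genes were thus lowest in the neutrophils of the day 1 and day 3 libraries. These sums came from 52, 463, 115 and 296 cells, and no single cell gave more than 4.97% of the S100a8 UMIs. The neutrophil marker list was itself lower on those days, at 99318 CPM in the intact library, 34302 at day 1, 37336 at day 3 and 74108 at day 7, and its part in the difference was not tested. S100a11 in these cells stood at 5242, 2841, 2805 and 3175 CPM, and S100a6 at 3646, 3421, 2351 and 2490 CPM. S100a10 went the other way, with 183, 817, 411 and 176 CPM, and so did S100a4, with 126, 366, 491 and 123 CPM.

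Neutrophils held 91.2% of all S100a8 UMIs in the intact library, 88.2% at day 1, 74.7% at day 3 and 94.2% at day 7. For S100a9 the shares were 90.0%, 89.3%, 84.2% and 93.7%. Lower levels were seen in the other classes. In microglia S100a8 stood at 232, 317, 72.4 and 302 CPM, in endothelial cells at 260, 515, 116 and 460 CPM, and in fibroblasts at 222, 657, 137 and 362 CPM. All 3 classes were lowest at day 3, the library with the lowest S100a8 over all cells (738 CPM, against 4777, 5476 and 5909).

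To set depth apart, each cell was thinned to 1000 UMIs. The share of thinned microglia with an S100a8 UMI was 19.5%, 24.9%, 4.20% and 24.3% in the intact, day 1, day 3 and day 7 libraries, against 19.0%, 24.9%, 3.93% and 24.1% of endothelial cells. Without thinning the shares were 55.3%, 85.3%, 25.3% and 64.3% of microglia (median 3246, 11101, 7281 and 3962 UMIs) and 47.2%, 65.6%, 14.9% and 52.0% of endothelial cells (median 2873, 4271.5, 3880 and 2483.5 UMIs). No time-course cell of these classes was too shallow to be thinned. For S100a9 the thinned shares were 17.3%, 19.5%, 2.64% and 17.1% of microglia and 15.1%, 20.8%, 4.15% and 20.5% of endothelial cells. Microglia thus had shares near the endothelial ones, or somewhat lower for S100a9 at days 3 and 7, and such a share is not read here as expression in either class. Where these UMIs came from was not tested. Monocyte-marked cells stood above the endothelial share of S100a8, with 41.2% at day 1, 16.4% at day 3 and 37.0% at day 7, as did macrophages with 31.1% at day 1 and 13.8% at day 3. Macrophages at day 7 (24.4%) did not.

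The ratio of S100a8 to S100a9 UMIs differed among classes. It was 1.63 [1.61 to 1.66], 1.47, 1.67 and 1.69 in neutrophils of the 4 libraries in order of time. Microglia gave 1.19, 1.27, 2.03 and 1.47, and endothelial cells 1.27, 1.29, 1.81 and 1.55. Monocyte-marked cells gave 3.30 at day 1 [3.17 to 3.44], 3.45 at day 3 [3.15 to 3.79] and 2.59 at day 7 [2.15 to 3.13]. Macrophages gave 1.80 at day 1, 5.63 at day 3 [5.25 to 6.06] and 1.88 at day 7. At day 3 the ratio was also above that of neutrophils in microglia (2.03 [1.88 to 2.21]) and undivided phagocytes (3.68 [2.98 to 4.59]). So it was in astrocytes (2.58 [1.76 to 3.86]) and fibroblasts (2.11 [1.70 to 2.64]), from 38 and 122 S100a9 UMIs. Endothelial cells (1.81 [1.62 to 2.02]) and OPC (2.04 [1.43 to 2.96]) were above it too, but their intervals held the neutrophil value. Ependymal cells (1.43) and pericytes and smooth muscle cells (1.65) were not above it. The monocyte-marked ratio lay above the neutrophil ratio of the same library at each of the 3 days, beyond counting error. S100a8 itself stood at 1278, 634 and 818 CPM in monocyte-marked cells and at 583, 211 and 415 CPM in macrophages at days 1, 3 and 7. The summed neutrophil list in monocyte-marked cells was 208, 93.7 and 276 CPM with 0, 1 and 1 of 13 markers at 0, and in macrophages 203, 76.1 and 201 CPM with 0, 0 and 2 at 0.

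**Figure D2:**
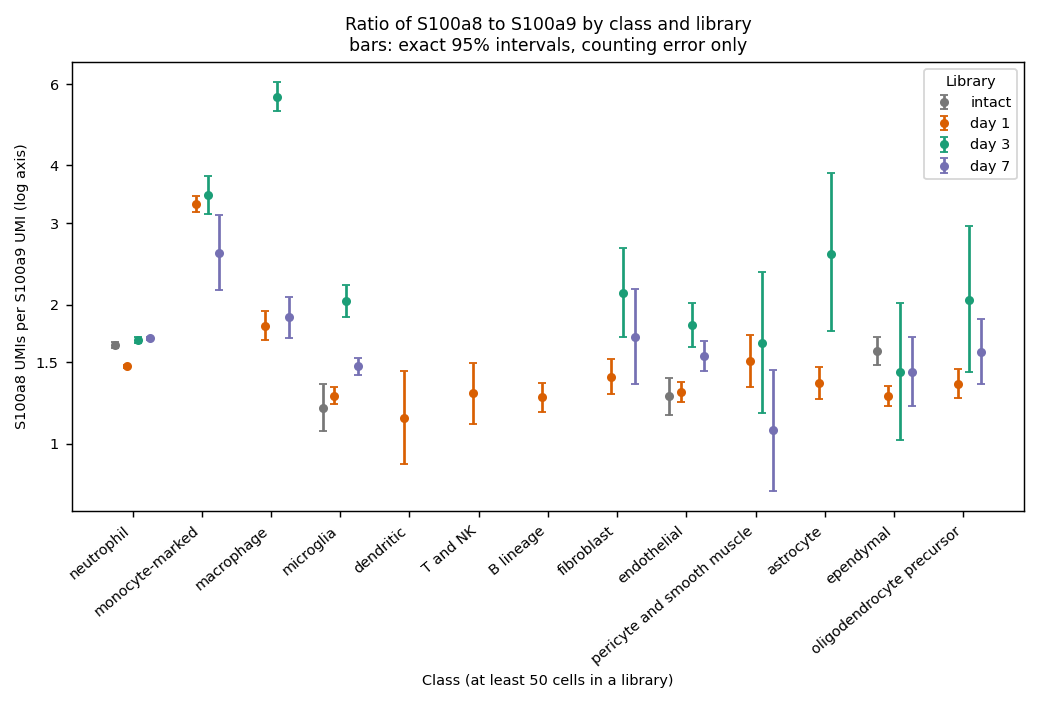
Ratio of S100a8 to S100a9 UMIs by class and time-course library, for classes with at least 50 cells, with exact 95% intervals for counting error. Neutrophils lie between 1.47 and 1.69. Monocyte-marked cells, day 3 macrophages and day 3 astrocytes lie above 2.5.

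Single cells decided some of the other values for S100a8. In the day 1 library 1 cell gave 77.5% of the S100a8 UMIs of the B-lineage class (4076 CPM) and 1 cell 73.1% of those of the OPC class (1717 CPM). In the intact library 1 cell gave 52.1% of the UMIs of the ependymal class (1108 CPM). Those 3 levels therefore rest largely on 1 cell each. In the injected rats only 9 PBS and 12 MPSS cells were gated as neutrophils, and there S100a9 exceeded S100a8, with a ratio of S100a8 to S100a9 of 0.482 [0.463 to 0.502] and 0.510 [0.486 to 0.535]. Unnamed cells of the PBS library held 54.8% of its S100a9 UMIs and those of the MPSS library 24.3%. In these unnamed cells S100a9 stood at 7371 CPM in PBS and 1180 CPM in MPSS, with the neutrophil list at 1350 and 95.3 CPM and 34.3% of the PBS S100a9 UMIs in 1 cell.

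S100a4, S100a6, S100a10 and S100a11 were higher in phagocytes on days 1 and 3 after injury. S100a4, linked to movement of leukocytes, stood at 28.0 CPM in intact phagocytes, 117 at day 1, 283 at day 3 and 33.5 at day 7. S100a6 stood at 72.2, 538, 672 and 82.1 CPM. S100a10, the annexin A2 partner, stood at 63.5, 322, 282 and 38.9 CPM, and S100a11 at 34.0, 337, 380 and 77.0 CPM. All 4 genes were high in the day 1 and day 3 libraries, and by day 7 only S100a11 was still over 2-fold above the intact library, while S100a10 was 1.63-fold below it [1.38 to 1.92]. Against intact phagocytes, S100a11 was 9.90-fold higher at day 1 [8.11 to 12.2] and 11.2-fold at day 3 [9.14 to 13.8]. For S100a6 the ratios were 7.45 [6.49 to 8.6] and 9.30 [8.11 to 10.7], for S100a4 4.15 [3.32 to 5.26] and 10.1 [8.11 to 12.7], and for S100a10 5.08 [4.38 to 5.92] and 4.44 [3.84 to 5.17].

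At day 1, 4 of the 8 genes were higher in phagocytes, beside 15.1% of all measured genes, and 1 was lower, S100b, beside 25.5%. At day 3 the same 4 were higher (9.72% of genes) and S100a9 and S100b lower (33.5% of genes). At day 7, 1 was higher (6.83%) and 0 lower (31.1%). The median log2 ratio of the 8 genes was 1.36, 1.30 and 0.14 on the 3 days, and that of all genes -0.22, -0.55 and -0.63. Normalising by TMM (trimmed mean of M values) would raise every phagocyte ratio by 0.22, 0.51 and 0.61 on the log2 scale on days 1, 3 and 7. The day 7 count did not hold under every gate. With marker scores computed within each library the S100a11 log2 ratio was -0.46, and with monocyte-marked cells added to phagocytes 0 genes were higher.

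Phagocytes were not the same mixture in each library. Macrophages, told from microglia by marker counts, made up 2.84% of phagocytes in the intact library, 29.2% at day 1, 42.1% at day 3 and 10.3% at day 7, and the 4 genes were far higher in macrophages than in microglia. Within microglia S100a4 stood at 2.56, 13, 88.6 and 10.3 CPM (7, 206, 2252 and 183 UMIs), S100a6 at 12.1, 69.3, 128 and 25.2 CPM, S100a10 at 31.1, 70.5, 58.0 and 16.3 CPM, and S100a11 at 26.4, 66.8, 70.3 and 40.0 CPM. Within macrophages S100a4 stood at 575, 490 and 186 CPM at days 1, 3 and 7, S100a6 at 2623, 1259 and 434 CPM, S100a10 at 1419, 519 and 175 CPM, and S100a11 at 1539, 709.5 and 275 CPM. Macrophage levels of all 4 were thus highest at day 1 and lowest at day 7, while S100a4 and S100a6 in microglia were highest at day 3. The intact library held only 23 macrophages, which gave 756, 1650, 979 and 224 CPM for S100a4, S100a6, S100a10 and S100a11.

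In microglia alone, 4 of the 8 genes were higher at day 1 (15.5% of genes) and S100b lower (24.9%). At day 3, S100a4, S100a6 and S100a11 were higher (9.63%) and S100a8 and S100a9 lower (25.1%), and at day 7 S100a4 and S100a6 were higher (7.07%) and 0 lower (29.1%). As stated above, the S100a8 and S100a9 shares of microglia are not read as expression, and S100a8 over all cells was lowest at day 3 too. The largest microglial ratio was that of S100a4 at day 3, 34.5 [16.7 to 86.0], from 7 intact UMIs. S100a6 gave 5.73 [4.06 to 8.37] at day 1 and 10.6 [7.53 to 15.4] at day 3. The macrophage marker list within these microglia summed to 1016, 762, 5351 and 10576 CPM in order of time, with 0 of 10 markers at 0 in each library. This sum was highest at day 7, when the 4 genes were lower than at day 3. The median marker of the list stood at 2.93, 11.6, 14.9 and 9.96 CPM in order of time, highest at day 3. The part of these markers in the ratios was not tested. Over all cells S100a4 had 272 of 9661552 UMIs in the intact library and 13510 of 50635770 at day 1. It had 20532 of 72515788 at day 3 and 2139 of 30470794 at day 7. S100a4 was thus higher over all cells after injury as well, and the part of this in the microglial values was not tested.

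Monocyte-marked cells carried the 4 genes above macrophages after injury. S100a4 stood there at 999, 1196 and 1421 CPM at days 1, 3 and 7, S100a6 at 4380, 2573 and 3007 CPM, S100a10 at 1999, 1036 and 1292 CPM, and S100a11 at 2843, 1744 and 1965 CPM. All 4 were higher than in macrophages of the same library at each of the 3 days. Dendritic cells held S100a4 at 551 CPM at day 1 and 853 CPM at day 3. Monocyte-marked cells made up 22.1% of kept cells at day 1, 6.11% at day 3 and 1.81% at day 7.

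**Figure D3:**
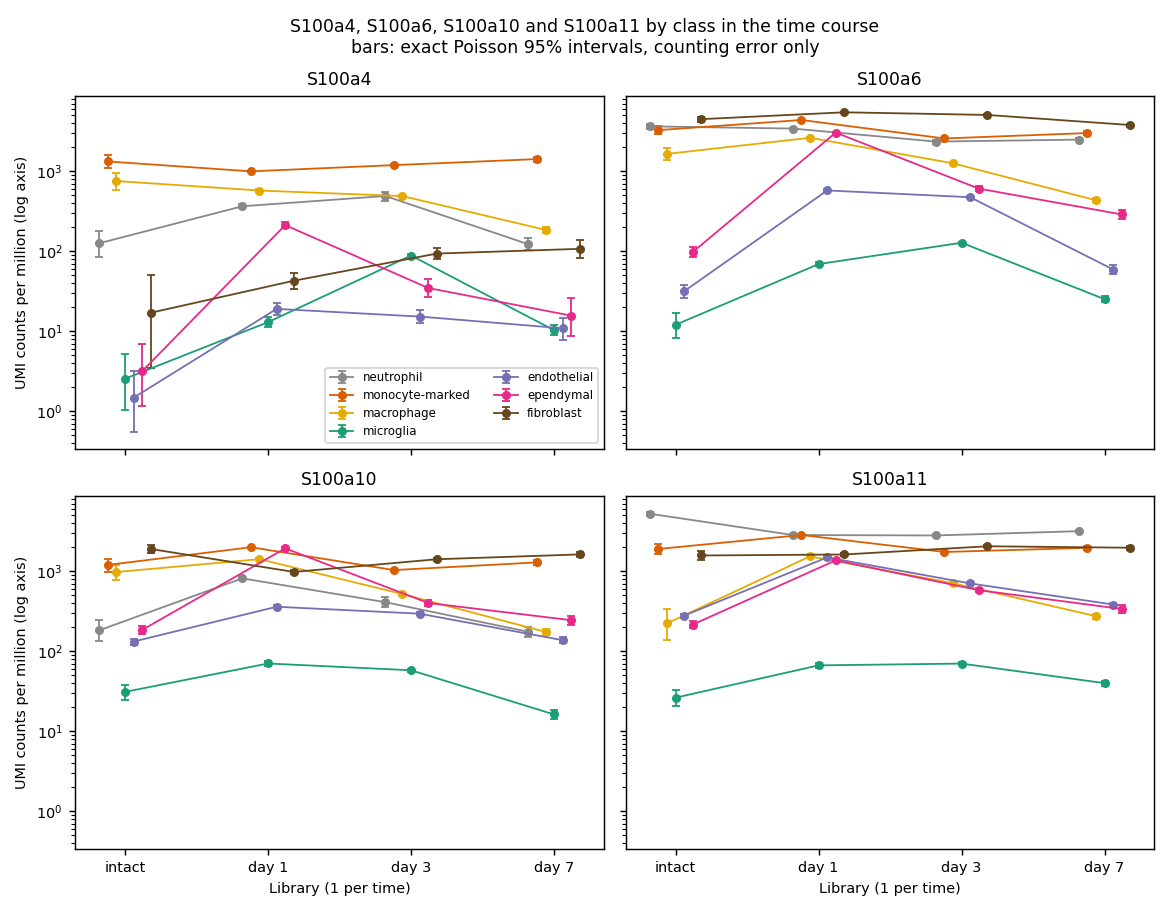
Level in CPM (log axis) of S100a4, S100a6, S100a10 and S100a11 over the 4 time-course libraries in 7 cell classes, with exact 95% Poisson intervals. Monocyte-marked cells lie above macrophages and macrophages above microglia after injury. The intact points for macrophages, monocyte-marked cells and fibroblasts rest on 23, 20 and 38 cells.

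Endothelial cells showed the same 4 genes higher early after injury. S100a6 stood at 31.6 CPM in the intact library, 576 at day 1, 474 at day 3 and 59.2 at day 7, and S100a11 at 280, 1491, 705 and 385 CPM. S100a10 stood at 133, 361, 295 and 138 CPM, and S100a4 at 1.48 (6 UMIs), 19.1, 15.3 and 10.9 CPM. The day 1 and day 3 libraries were the highest for all 4. Ratios to the intact library at day 1 were 18.2 for S100a6 [15.3 to 21.9], 12.9 for S100a4 [5.75 to 35.7], 5.33 for S100a11 [5.01 to 5.68] and 2.72 for S100a10 [2.48 to 2.99]. The macrophage list in endothelial cells summed to 620, 1259, 1739 and 1521 CPM in order of time and the fibroblast list to 45, 31.7, 25.2 and 34.7 CPM. The first was higher after injury and the second was not, and the part of either in these ratios was not tested. S100a4 was also higher over all cells after injury, from 272 of 9661552 UMIs in the intact library to 13510 of 50635770 at day 1. The part of this in the low endothelial S100a4 values was not tested.

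At day 1, 4 of the 8 genes were higher in endothelial cells (13.3% of genes) and S100b lower (13.9%). At day 3 the same 4 were higher (8.56%) and S100a8, S100a9 and S100b lower (9.61%). The limit given for S100a8 and S100a9 in microglia holds for endothelial cells as well. At day 7 S100a4 alone was higher (5.05%) and 0 were lower (7.92%). With every cell thinned to 1000 UMIs, 2 were higher and 0 lower at day 3, and the share of all genes was not counted under thinning. S100b, whose endothelial level was 9.15, 1.89, 3.16 and 5.73 CPM, was near the floor of detection throughout.

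Ependymal cells, which line the central canal, had large early differences in the same 4 genes. S100a6 stood at 97.9 CPM in intact ependymal cells, 3045 at day 1, 608 at day 3 and 289 at day 7, and S100a10 at 185, 1935, 402 and 245 CPM. S100a11 stood at 216, 1371, 581 and 338 CPM, and S100a4 at 3.18 (6 UMIs), 213, 34.8 and 15.7 CPM. All 4 were highest at day 1. The day 1 ratios were 31.1 for S100a6 [26.9 to 36.2], 10.4 for S100a10 [9.38 to 11.7], 6.35 for S100a11 [5.73 to 7.05], 67.0 for S100a4 [30.6 to 183] and 3.04 for S100a13 [2.12 to 4.46]. S100b was lower in the same cells, 2.59-fold [2.37 to 2.82].

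In ependymal cells 5 of the 8 genes were higher at day 1 (14.3% of genes) and 1 lower (18.5%). At day 3, 5 were higher (11% of genes) and S100a8 and S100a9 lower (9.35%), and at day 7 S100a4, S100a6 and S100a13 were higher (6.85%) and S100a8 and S100a9 lower (9.43%). S100a8 over all cells was also lowest in the day 3 library. In the intact ependymal class 1 cell gave 52.1% of S100a8 UMIs and 46.1% of S100a9 UMIs. With the highest cell left out of each library, the day 7 differences were 1.56-fold [1.37 to 1.77] for S100a8 and 1.62-fold [1.39 to 1.90] for S100a9, so neither passed 2-fold. The day 3 differences were then 10.8-fold for S100a8 and 11.4-fold for S100a9, in place of 21.6-fold and 19.4-fold. The class was not alike on all days. Its own ependymal list summed to 11402, 3701, 7457 and 11573 CPM in order of time and the astrocyte list in it to 938, 3847, 1241 and 1006 CPM, so that day 1 had the lowest ependymal and the highest astrocyte marker level. Their part in the S100 ratios was not tested. The class gated as astrocytes held 354 cells at day 1, 105 at day 3 and 11 in the intact library, with a median of 4 of 11 markers per cell at day 1. In it S100a6 stood at 3018 CPM at day 1 and 1057 CPM at day 3, and S100a10 at 2050 and 726 CPM. Its day 1 cells also held 1139 CPM of the ependymal list.

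Pericytes and smooth muscle cells, 98 at day 1, 183 at day 3 and 95 at day 7, held S100a11 at 1774, 1087 and 702 CPM and S100a6 at 1183, 604 and 105 CPM. Both genes were highest at day 1 there, as in endothelial cells. Fibroblasts and OPC differed from this course. S100a6 in fibroblasts stood at 4487 CPM in the intact library (38 cells), 5463 at day 1, 5064 at day 3 and 3784 at day 7, so that no library was 2-fold apart from another. S100a10 there stood at 1902, 982, 1415 and 1626 CPM, lowest at day 1, and S100a11 at 1577, 1623, 2055 and 1970 CPM. S100a4 was 17.1, 42.9, 93.8 and 107 CPM, highest at day 7. In OPC S100a6 stood at 767, 1267 and 615 CPM at days 1, 3 and 7 and S100a10 at 1324, 544 and 158 CPM. The intact OPC class held 29 cells, with S100a6 at 209 CPM and S100a10 at 52.3 CPM.

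S100a13 differed little with time in endothelial cells and phagocytes. In endothelial cells it stood at 603, 486, 572 and 586 CPM in the 4 libraries, and these cells held 77.7%, 30.9%, 26.7% and 33.1% of all its UMIs. In phagocytes it stood at 129, 117, 176 and 139 CPM, and these held 11.8%, 21.7%, 54.6% and 47.2% of its UMIs. Phagocytes thus held a larger share than endothelial cells at days 3 and 7, when they were also more of the cells. In order of time, endothelial cells were 41.7%, 16.2%, 15.1% and 16.9% of kept cells, and phagocytes 29.3%, 29.6%, 62.5% and 63.6%. Its level in OPC was 337, 694 and 616 CPM at days 1, 3 and 7, and 398 CPM in the 29 intact cells. Ependymal cells were low, at 19.6, 59.5, 49 and 40.8 CPM. Oligodendrocytes of the injected rats stood at 271 CPM in PBS and 277 CPM in MPSS and held 42.8% and 52.3% of its UMIs.

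S100b was lowest at day 1 in ependymal cells and OPC, the day on which S100a10 was highest in both classes. In ependymal cells it stood at 743, 287, 663 and 1088 CPM in order of time, lowest at day 1 and highest at day 7. In OPC it stood at 1308 CPM in the intact library (29 cells), 256 at day 1, 1110 at day 3 and 1417 at day 7. The day 1 astrocyte class gave 148 CPM and the day 3 class 253 CPM. Fibroblasts gave 199, 22.5, 97.0 and 155 CPM, and phagocytes 16.1, 4.17, 7.72 and 9.54 CPM. All of these classes had their lowest S100b at day 1, as had the sum over all cells (172, 33.5, 47.5 and 79.6 CPM). In phagocytes it was 3.87-fold lower at day 1 [2.64 to 5.61] and 2.09-fold lower at day 3 [1.5 to 2.84], and the second ratio no longer passed 2-fold with TMM. In the injected rats oligodendrocytes carried S100b at 5732 CPM in PBS and 4843 CPM in MPSS and held 87.1% and 87.8% of its UMIs, followed by Schwann cells at 2174 and 1957 CPM and OPC at 654 and 459 CPM (21 and 55 cells).

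**Figure D4:**
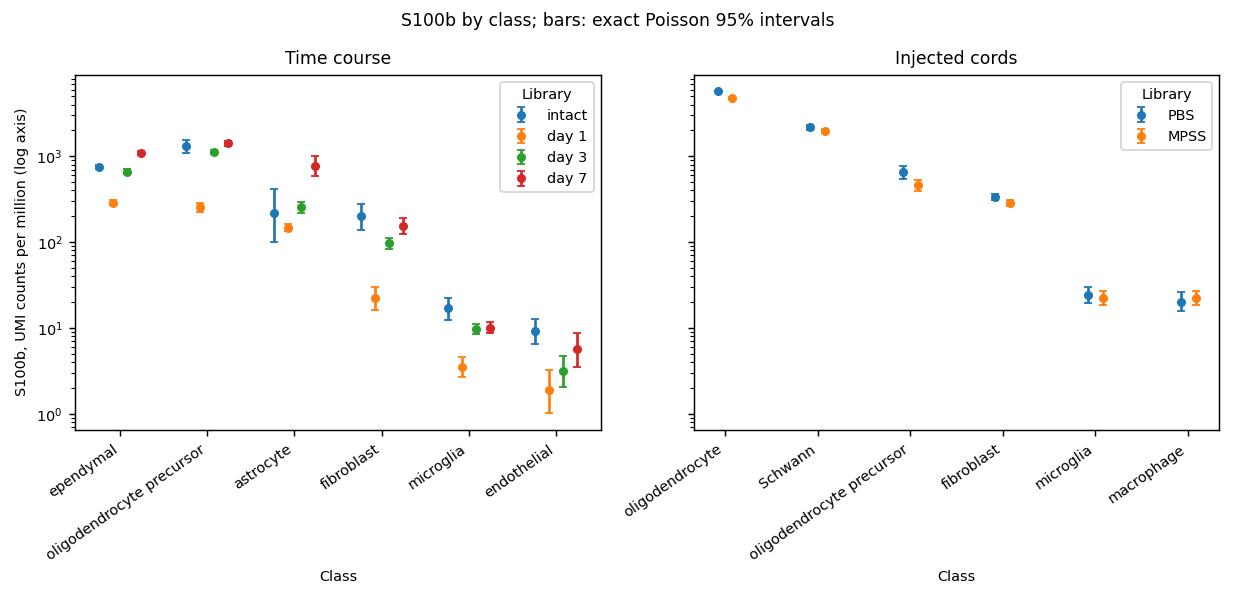
S100b level in CPM by cell class, with exact 95% Poisson intervals, in the 4 time-course libraries (one panel) and in the PBS and MPSS libraries (the other panel). Ependymal cells and OPC are lowest at day 1, and oligodendrocytes lead in the injected rats with 5732 and 4843 CPM.

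The comparison of MPSS with PBS addresses where the same genes stood with and without the injected drug, 2 weeks after injury. In phagocytes 0 of the 8 genes were at least 2-fold higher (2.11% of genes) and 0 lower (3.4%). S100a4 came nearest, at 208 CPM in PBS and 105 CPM in MPSS, 1.97-fold lower [1.83 to 2.12]. S100a6 stood at 30.2 and 18.9 CPM, S100a10 at 288 and 274 CPM, and S100a11 at 577 and 609 CPM. S100a4 was lower in macrophages too, with 338 and 172 CPM, and in microglia, with 87.0 and 55.7 CPM. Undivided phagocytes had the widest gap, with 258 CPM in PBS and 73.9 CPM in MPSS, 3.49-fold lower [2.87 to 4.26]. Macrophages were 35.4% of PBS phagocytes and 35.6% of MPSS phagocytes. With clusters in place of the gate, S100a4, S100a8 and S100a9 were at least 2-fold lower in MPSS phagocytes. The share of all genes that were so under clusters was not counted.

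In microglia 0 of the 8 genes were higher (2.34% of genes) and S100a6, S100a10 and S100a11 were lower (3.36%). S100a11 stood at 109 CPM in PBS and 29.5 CPM in MPSS, 3.70-fold lower [3.07 to 4.49], with 23.0% and 23.5% of its UMIs in 1 cell. S100a10 stood at 76.9 and 32.9 CPM, 2.33-fold lower [1.93 to 2.83], and S100a6 at 7.50 and 3.28 CPM from 29 and 17 UMIs. Without the highest cell of each library S100a6 was 1.60-fold lower [0.778 to 3.32] and no longer passed 2-fold. The macrophage list within microglia was 4116 CPM in PBS and 2168 CPM in MPSS, and its part in these ratios was not tested. In macrophages 0 were higher (3.69% of genes) and S100a9 lower (3.68%), the latter at 3.27 and 1.24 CPM, a level that rests on few UMIs. S100a11 in macrophages was 1110 and 1311 CPM, a ratio of 1.18 [1.13 to 1.23].

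Outside phagocytes, 2 of the 8 genes counted as lower in oligodendrocytes, S100a8 and S100a9 (3.77% of genes), and 0 as higher (2.66%). Both stood under 5 CPM in both libraries, a level that rests on few UMIs. S100a4 in Schwann cells stood at 728 CPM in PBS (63 cells) and 1413 CPM in MPSS (142 cells), a ratio of 1.94 [1.70 to 2.23]. S100a10 in oligodendrocytes stood at 156 and 253 CPM, a ratio of 1.62 [1.46 to 1.80], and S100b was 1.18-fold lower [1.16 to 1.21]. In fibroblasts S100a6 stood at 4795 and 3979 CPM and S100a4 at 216 and 218 CPM. T or NK cells, 49 in PBS and 61 in MPSS, held S100a4 at 1201 and 1396 CPM, S100a10 at 1334 and 1110 CPM and S100a6 at 734 and 1027 CPM, and S100a11 only at 163 and 194 CPM. These lymphocytes thus had S100a4 above S100a11, the opposite order to macrophages of the same rats.

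**Figure D5:**
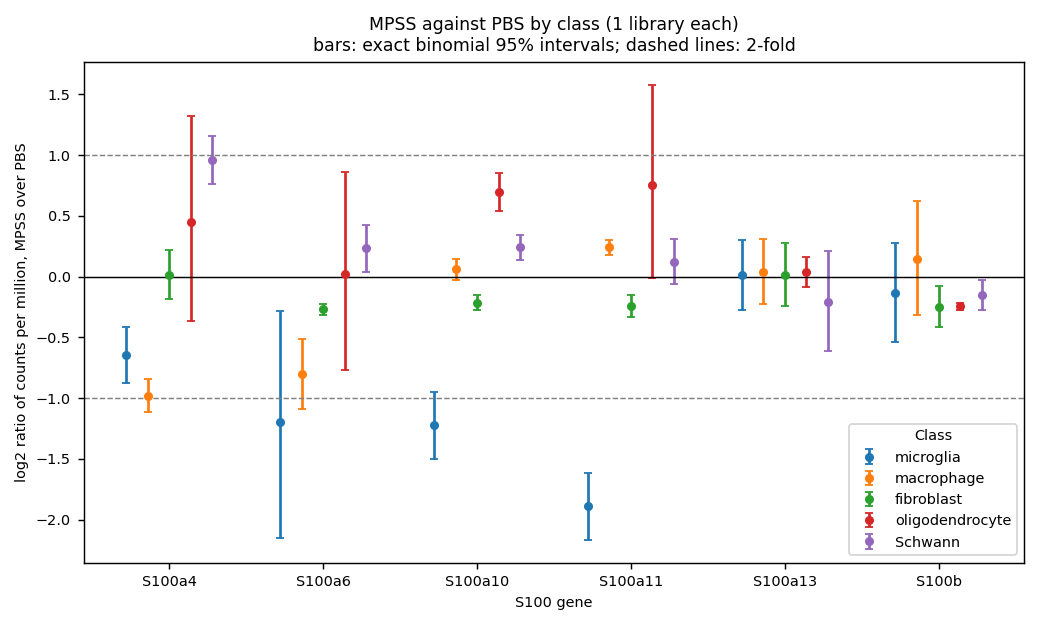
Log2 ratio of MPSS to PBS for S100a4, S100a6, S100a10, S100a11, S100a13 and S100b. The classes are microglia, macrophages, fibroblasts, oligodendrocytes and Schwann cells, with exact 95% intervals for counting error. S100a8 and S100a9 are not drawn. S100a6, S100a10 and S100a11 lie below -1 in microglia, and S100a4 lies near 1 in Schwann cells.

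Genes known to bind or receive S100 proteins were taken as 4 lists and read in phagocytes. All 5 annexin partners were measured, with 2 higher at day 1 (Anxa1 and Anxa2), 3 at day 3 and 3 at day 7 (Anxa1, Anxa2 and Anxa5 on both days), and 0 lower. Of all genes, 15.1%, 9.72% and 6.83% were higher and 25.5%, 33.5% and 31.1% lower at days 1, 3 and 7. Of the receptors (4, 5 and 4 measured), 1 was higher on each day, and 1, 2 and 1 were lower. Of the other partners (5, 6 and 6 measured), 1 was higher on each day, and 0, 1 and 0 were lower. Of the other S100 genes (3 measured on each day), 0, 1 and 1 were higher and 1, 1 and 0 lower. Anxa2, the partner of S100a10, stood at 34.4, 274, 351 and 112 CPM, Anxa5 at 125, 188, 524 and 344 CPM, and Anxa1 at 14, 32.7, 91.9 and 34.0 CPM. Anxa2 was high on days 1 and 3, as S100a10 was, but at day 7 it was still 3.26-fold above the intact library [2.66 to 4.03], while S100a10 was below it. Of the receptors, Cd36, a scavenger receptor, stood at 7.01, 58.3, 75.8 and 14.5 CPM, and Ly96, the co-receptor of Tlr4, at 109, 51.3, 62.2 and 96.9 CPM. Tlr4 itself was low, at 29.5, 17.1, 11.2 and 6.90 CPM, and lower at day 3 and day 7. Cacybp, which binds S100a6, stood at 81.0, 230, 81.6 and 53.5 CPM, highest at day 1. Ahnak, which binds S100a10, stood at 41.0, 44.6, 84.9 and 30.5 CPM. Il1a, released with S100a13, stood at 282, 170, 116 and 275 CPM. Of 10 other S100 genes, 3 had enough UMIs at days 1 and 3, and S100a1 among them stood at 40.7, 40.9, 94.0 and 115 CPM.

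Endothelial and ependymal cells had Anxa2 high on day 1 as well. Endothelial Anxa2 stood at 339, 1694, 548 and 249 CPM and ependymal Anxa2 at 409, 1618, 526 and 426 CPM. Anxa2 in phagocytes stood at 445 CPM in PBS and 299 CPM in MPSS. No annexin partner was at least 2-fold different between MPSS and PBS phagocytes, beside 2.11% of all genes higher and 3.4% lower.

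Likeness was measured over 34 sums of a class in a time-course library with at least 50 cells, as Pearson's r of log2(CPM + 10), among 4091 genes. The sums share libraries and depth, so r is a description and has no p. The 3 genes most like S100a8 were S100a9 (r = 0.990), Wfdc21 (0.988) and Camp (0.952), and those most like S100a9 were S100a8, Wfdc21 (0.974) and Ngp (0.969). S100a4 was most like Ccr2 (0.858), Cfp (0.849) and Lgals3 (0.834), S100a6 most like Sec61b (0.857), Cd44 (0.827) and Plp2 (0.812), and S100a11 most like Plp2 (0.906), Anxa2 (0.813) and Glipr2 (0.789). Camp and Ngp are neutrophil granule genes and Ccr2 is a monocyte receptor, and all 3 were among the markers used to name cells. S100a10 was most like S100a6 (0.790), Sec61b (0.754) and Sdc1 (0.746). S100a13 was most like Ywhab (0.913), Nav1 (0.80) and Rsu1 (0.794), and S100b most like Ntrk2 (0.959), Ncam1 (0.951) and Ctxn1 (0.945). Among pairs of the 8 genes S100a8 with S100a9 stood highest, followed by S100a6 with S100a10 (0.790) and S100a6 with S100a11 (0.757).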

How the data were processed

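UMI counts of single cells from 6 libraries, 1 per group, were used as the authors deposited them, unscaled. Cell Ranger 3.0.2 is named in the submitters' processing notes, and version 3.1.0 stands in the header of the injected matrices. The genome build and the calling of cells are not given in the sources used here. Kept cells had 200 or more genes, 500 or more UMIs and no more than 20% of UMIs from mitochondrial genes. Each cell was named by z scores (capped at 5) of 168 marker genes of 15 classes, with at least 3 markers detected and a mean z above 0. Of these, 162 were measured in the time course and 149 in the injected set. Phagocytes were divided into microglia, macrophages and undivided cells by which marker sub-list had more genes detected. No doublet caller was run, and leaving out cells that scored for a pair of classes was an alternative. Counts were summed per class and library. The 2 sets were not compared by level. The members and lists were chosen with earlier results of these data known. The genes named were the 8 members, partner genes at least 2-fold different in phagocytes with at least 50 CPM where higher, with Tlr4 named as the receptor of calprotectin, and the 3 genes most like each member among those with at least 100 CPM in a sum. Thinning, other scalings, gates and filters were tried as alternatives. The summing and interval steps were tested on simulated data. Python 3.11.15, numpy 2.4.6, scipy 1.17.1, pandas 2.3.3, leidenalg 0.10.2, R 4.3.3 and edgeR 4.0.16 (for TMM) were used.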

Additional observations from a re-analysis of the deposited data

Results flagged for a closer look

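The difference of S100a6 between MPSS and PBS was over 2-fold in opposite directions in subgroups of phagocytes. Its log2 ratio was 1.12 in undivided phagocytes and -1.20 in microglia. The difference between the subgroups was not tested, and the values rest on 4 PBS and 13 MPSS UMIs in undivided phagocytes and 29 and 17 UMIs in microglia.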

How the results depend on the processing

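Scalings, gates and filters were varied for phagocytes and endothelial cells alone. Of 25 member ratios past 2-fold there, 359 of 360 values under 15 other settings (13 planned, 2 added after seeing the data) kept their direction and 344 stayed past 2-fold. The settings with at least 50 UMIs and with no minimum change only which ratios are counted. Their ratios equal the reported ones by construction, so these values, which are among the 360, are no check of the ratios. The exception in direction was S100a11 in phagocytes at day 7, with a log2 ratio of -0.46 when z scores were made within each library. Of 204 counts of members, 181 stayed within 1.5 times. In phagocytes, the count lower at day 3 went from 2 to 1 under TMM, median of ratios, thinning, and a library total that leaves ribosomal and mitochondrial genes out. The count higher at day 7 went from 1 to 2 under TMM and median of ratios, and to 0 with z scores within each library or with monocyte-marked cells added. The count lower at day 7 went from 0 to 3 with z scores within each library. In endothelial cells, thinning took the count lower at day 1 from 1 to 0, the count higher at day 3 from 4 to 2 and the count lower at day 3 from 3 to 0. The endothelial count higher at day 7 went from 1 to 3 under TMM, median of ratios and z scores within each library, to 2 with Leiden clusters or at least 2 markers, and to 0 with at least 50 UMIs required. In phagocytes of MPSS against PBS, thinning gave 1 higher. The count lower went from 0 to 1 with a mean over cells, thinning, or at least 2 markers, and to 3 with Leiden clusters. The cause was not tested. Leaving out the highest cell of each library, added after seeing the data, was run for 59 ratios past 2-fold in phagocytes, microglia, macrophages, endothelial and ependymal cells. Of these, 56 stayed past 2-fold, and the 3 others were S100a8 and S100a9 in ependymal cells at day 7 (log2 ratios -0.64 and -0.70) and S100a6 in microglia of MPSS against PBS (-0.68). No paired analysis was possible because each group holds 1 library, and for the same reason no replicate could be left out. Depth limits S100a4 in intact microglia, endothelial and ependymal cells, which rested on 7, 6 and 6 UMIs.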
